A study of Homo sapiens with 9 samples.

Results

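Differentiation of radioresistant glioblastoma stem cells in serum was read from 6 of the 9 RNA-seq libraries of the series, chosen by their labels: 3 of Diff cells and 3 of GSCs. The other 3 libraries, of parental U87, served as the level to which a gene could return. U87, an established cell line from human glioblastoma, was grown in medium with fetal bovine serum. GSCs are stem cells derived from U87, kept in serum-free medium with B27 supplement, basic fibroblast growth factor and epidermal growth factor, and selected by repeated irradiation. Diff cells are the progeny of these irradiated GSCs, induced to differentiate with fetal bovine serum and grown on from clonal communities in the same serum medium as U87. Both Diff cells and GSCs therefore carry the irradiation history, and U87 does not. Diff cells and GSCs differ at once in basal medium (DMEM against DMEM/F12), B27 supplement, serum, growth factors and a clonal step. These cannot be told apart here. All 3 groups come from 1 cell line, and the Diff culture was grown from selected clonal communities. Nothing states that the replicates were separate cultures, so the p-values measure the spread between these libraries, which may be technical.

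The growth factors of stem cell medium keep cells in a proliferative, undifferentiated state through receptor tyrosine kinases and the ERK cascade, whose output includes immediate early genes and its own feedback inhibitors, the Sprouty proteins and dual-specificity phosphatases. Serum carries lipoproteins, whose cholesterol lowers the activity of the SREBP transcription factors and so the transcription of sterol synthesis genes. It also carries BMP and TGF-beta ligands, which act through SMAD proteins on targets such as the ID genes, retinol, and lysophospholipids that act on the actin cytoskeleton and serum response factor. In glioblastoma, transfer to serum is the usual way to differentiate stem cells in culture, and stemness is read from markers such as PROM1 (CD133), SOX2, NES and FABP7.

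Levels are given in TPM, the number of transcripts of a gene in 1000000, recovered from the deposited log2(TPM + 1). A difference is a mean difference of log2(TPM + 1) with its standard error (SE) from limma, and it understates the change of genes at low levels. A gene was called when its adjusted p-value was under 0.05 and its difference exceeded 1 in size. Mitochondrial genes held 25.9% to 31.8% of TPM and the noncoding RNA RN7SL1 held 5.73% to 9.79% in the 9 libraries. Within a group, libraries correlated at a Pearson r of 0.954 to 0.972 across the tested genes, lowest for GSC replicate 3. Tested genes are those with a mean TPM over 1 in the 6 Diff and GSC libraries. TPM values keep no sequencing depth, so no detection limit is given.

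Among the genes that differed between Diff cells and GSCs, most were lower in Diff cells. Of 22606 tested genes with a mean TPM over 1 in the 6 libraries, 1913 were called in Diff cells against GSCs, or 8.46%, of which 617 (2.73%) were higher and 1296 (5.73%) lower in Diff cells. Quantile normalization moved the split to 845 higher and 1131 lower. Protein-coding genes made up 344 of the higher and 530 of the lower calls, and long noncoding genes 115 and 373. A change of over 4-fold was seen for 102 genes higher and 204 lower, and the median difference of all tested genes was -0.06. The groups did not overlap for 1889 of the called genes, and for 47.2% of all tested genes.

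**Figure D1:**
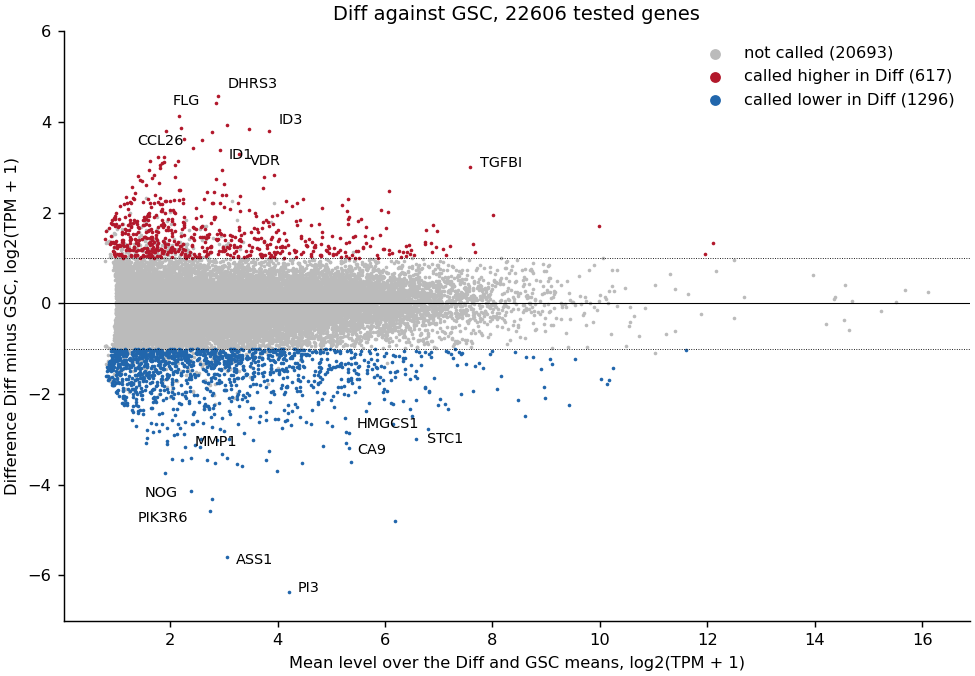
Each point is 1 of 22606 tested genes. The horizontal axis gives the mean of the Diff and GSC levels and the vertical axis the difference Diff minus GSC, both as log2(TPM + 1), with dotted lines at -1 and 1. Of the called genes, 617 lie above and 1296 below, from PI3 at -6.37 to DHRS3 at 4.58.

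Against U87, 3708 genes (16.4%) were called in GSCs and 2549 (11.3%) in Diff cells, so by this count Diff cells stood nearer to U87 than GSCs did. Each of the 1913 called genes was placed relative to U87. A gene was back at the U87 level when GSCs differed from U87 by a call and the 95% interval of Diff minus U87 lay inside -1 to 1; 583 genes (30.5%) met this, 160 of those that rose and 423 of those that fell. With the band narrowed to -0.5 to 0.5, 156 genes did. A further 219 were partly back, still called against U87 on the same side but nearer. Another 73 had moved further from U87 than GSCs already were, and 15 had crossed to the other side. For 274 genes (14.3%) GSCs lay within the U87 level and Diff cells left it. The remaining 749 could not be placed. These comparisons share libraries, so the placement is a description and not a separate test. The interval of Diff minus U87 lay inside -1 to 1 for 66.0% of all tested genes and for 40.8% of the called ones.

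**Figure D2:**
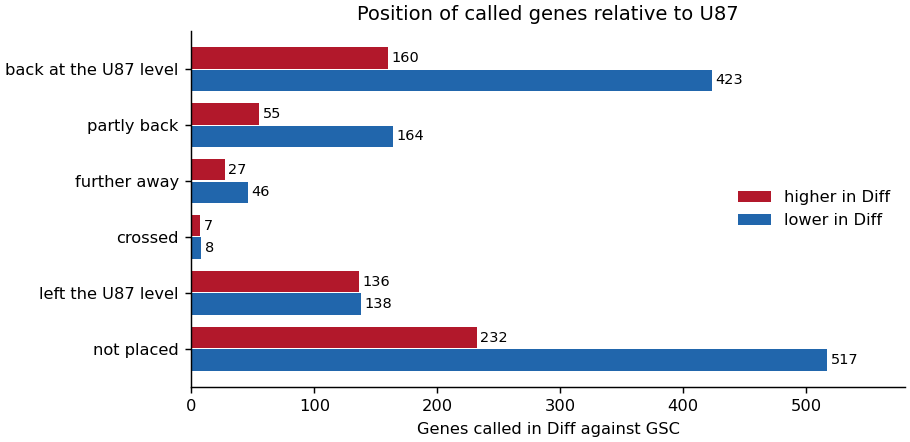
Bars count the genes called in Diff cells against GSCs by their position relative to U87, red for genes higher and blue for genes lower in Diff cells. Among placed genes the longest bars are those of genes back at the U87 level, 160 higher and 423 lower.

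Several of the largest falls among protein-coding genes were in genes that were high in GSCs and low in U87. PI3 encodes elafin, an elastase inhibitor of epithelia, and lies at 45174876 to 45176544 on chromosome 20. It stood at 209, 167 and 129 TPM in the GSC libraries, 1.05, 0.992 and 1.001 TPM in the Diff libraries and 1.1, 1.57 and 1.84 TPM in U87. Every GSC library stood far above every Diff library, and the difference was -6.37 ± 0.18 (SE) (limma, adjusted p = 2.5e-07). PIK3R6, a regulatory subunit of phosphoinositide 3-kinase gamma, fell from 31.1, 31.7 and 32 to 0.358, 0.613 and 0.155 TPM, with a difference of -4.58 ± 0.15 (SE). NOG encodes noggin, a secreted BMP antagonist, and went from 21.6, 19.1 and 22.7 to 0.182, 0.143 and 0.432 TPM, with 0.868, 0.603 and 0.529 TPM in U87. ATG9B, an autophagy membrane protein, went from 30.8, 32.2 and 25.1 to 0.562, 0.575 and 0.451 TPM. These 4 genes were back at the U87 level, and no Diff library reached the lowest GSC library in any of them. TRPV3, a heat-sensitive channel of skin, and DEPP1, a FOXO target, were also among the 10 largest falls, at -3.70 and -3.53. DEPP1 was not low in U87, where it stood at 267, 311 and 235 TPM. It fell from 92.8, 84.4 and 46.3 TPM in GSCs to 5.81, 4.86 and 5.18 TPM in Diff cells, further from U87.

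ASS1, the enzyme that makes argininosuccinate in arginine synthesis, did not follow the pattern of a return to a low U87 level either. It was expressed in both U87 (48.8, 41.8 and 49.6 TPM) and GSCs (58.7, 63.3 and 47.5 TPM) and was close to 0 in Diff cells (0.077, 0.226 and 0.274 TPM). The gene spans 130444929 to 130501274 of chromosome 9. Its difference from GSCs was -5.59 ± 0.12 (SE) (limma, adjusted p = 1.4e-07), and from U87 it was -5.32. The other members of the arginine list included ASL, the next enzyme of the pathway, at 0.24 and not called, and SLC7A1, the arginine transporter, which rose from 43.3, 45.4 and 42.6 to 96.1, 98.4 and 105 TPM. NOS3, the endothelial nitric oxide synthase that consumes arginine, fell from 42.2, 49.8 and 37.5 to 5.37, 5.18 and 5.95 TPM. Of 18 tested genes of arginine, urea cycle and polyamine metabolism, 1 (5.56%) rose and 3 (16.7%) fell, with a median of 0.05. Over all tested genes these shares were 2.73% and 5.73%.

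The largest rise was in DHRS3, a retinal reductase that turns retinal into retinol and is itself induced by retinoic acid. It lies at 12567910 to 12617731 of chromosome 1. DHRS3 stood at 0.372, 0.484 and 0.71 TPM in GSCs, 37.3, 33.5 and 35.3 TPM in Diff cells and 34.9, 33 and 34.5 TPM in U87. The Diff and U87 libraries overlapped, and the difference from GSCs was 4.58 ± 0.10 (SE) (limma, adjusted p = 1.1e-07). PTPRJ, a receptor tyrosine phosphatase, and NFATC2, a calcium-regulated transcription factor, likewise rose back to the U87 level, with differences of 3.61 and 3.23. VDR, the vitamin D receptor, rose from 1.996, 2.07 and 2.32 to 29.3, 30.6 and 28.7 TPM and passed the U87 libraries at 7.42, 7.45 and 7.79 TPM.

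A block of epidermal genes on chromosome 1 rose in Diff cells from near 0 in both GSCs and U87. FLG, which encodes filaggrin of the cornified skin layer, stood at 0.554, 0.485 and 0.534 TPM in U87, 0.67, 0.491 and 0.56 TPM in GSCs and 31.3, 32.6 and 33.7 TPM in Diff cells. HRNR, which encodes the related hornerin, stood at 0.94, 0.554 and 0.657 TPM, 1.27, 1.51 and 0.657 TPM and 31.1, 32.3 and 30.5 TPM in the same order, and FLG2 at 0.0331, 0.0632 and 0.0416 TPM, 0.0955, 0.115 and 0.073 TPM and 6.42, 5.48 and 6.5 TPM. The differences from GSCs were 4.42 ± 0.11 (SE), 3.93 ± 0.17 (SE) and 2.70 ± 0.14 (SE), and all 3 genes had left the U87 level. The antisense gene FLG-AS1, which runs across this block on the opposite strand from 152168125 to 152445456, rose as well, to 8.22, 7.21 and 7.62 TPM from 0.184, 0.279 and 0.189 TPM. Whether reads were counted by strand is not stated. By the annotation used here for coordinates, exons of FLG overlap exons of other genes over 5.52% of their length. For HRNR and FLG2 this overlap is 0%, so little exon sequence is shared with the antisense gene. The annotation used for counting is not given, and the share of antisense reads in the 3 coding genes was not tested. Their neighbours RPTN and CRNN did not reach the filter and stood at 1.04, 0.612 and 0.657 TPM and 0.916, 1.29 and 0.507 TPM in Diff cells, with 0 in every GSC library. Further out, S100A11 differed by 0.08 and THEM4 by 0.21, neither of them called, and TCHH was under 0.15 TPM in every library. RPTN, CRNN, S100A11, THEM4, TCHH and FLG-AS1 were looked up after the values of their neighbours were seen.

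Of the 7 tested epithelial barrier genes, 2 rose and 2 fell (28.6% each), compared with 2.73% and 5.73% of all tested genes. SERPINB4, a serine protease inhibitor of squamous epithelia, fell from 42.4, 35.7 and 52.4 to 3.65, 3.12 and 4.13 TPM, and PI3 fell as described. SERPINB4 shares near-identical sequence with SERPINB3, so its reads are uncertain. The remaining 22 genes of the list found in the table had a mean TPM of 1 or less. Beta-defensin genes of chromosome 8 fell together. DEFB106B went from 31.7, 33.5 and 34.8 to 2.94, 0.865 and 2.18 TPM and DEFB105A from 24.3, 17.9 and 19.1 to 0.996, 0.745 and 1.07 TPM, against 0 to 0.801 TPM in U87. These genes come in near-identical copies (DEFB105A and DEFB105B, DEFB106A and DEFB106B), so the share of each is uncertain. DEFB104A, DEFB105B and DEFB107A, looked up afterwards as their neighbours, fell as well, at -2.05, -2.31 and -2.32.

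**Figure D3:**
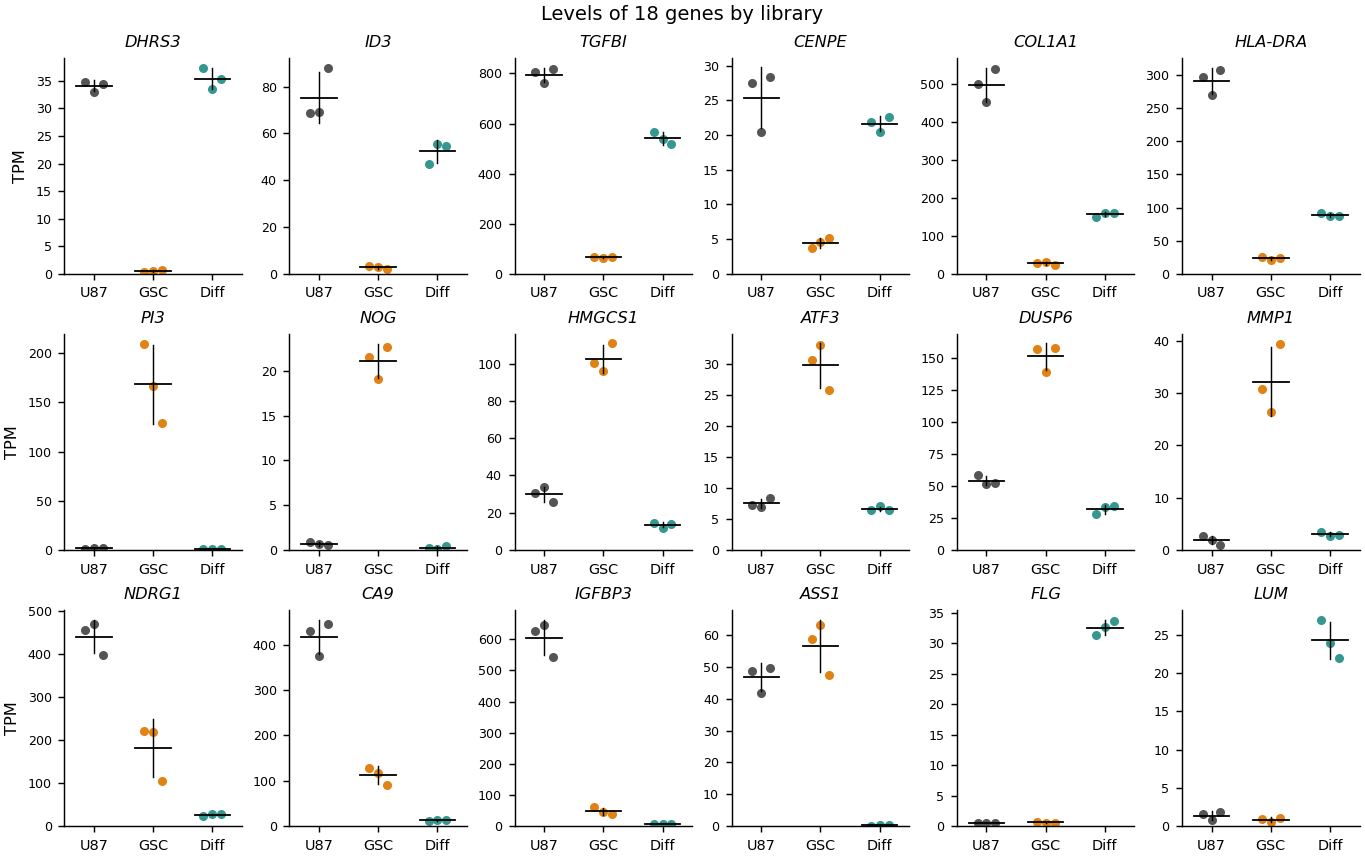
Points are the TPM of 18 genes in each library, with U87 in grey, GSC in orange and Diff in green; horizontal bars are group means and vertical bars 1 SD (n = 3). The top row holds genes that rose in Diff cells toward U87, and the middle row genes that fell toward it or, as HMGCS1 did, past it. The bottom row holds genes that moved away from U87, such as ASS1, at 0.077 to 0.274 TPM in Diff cells against 41.8 to 49.6 TPM in U87.

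With the limit of 1 on size, stem cell markers were called about as often as all tested genes, 7.14% against 8.46%. SOX2 and PROM1 were under 1 TPM in all libraries. Of 22 markers, 14 were tested, and 1 rose and 0 fell (limma). At an unadjusted p under 0.05 there were 10, and at an adjusted p under 0.05 alone also 10, beside 8068 of all 22606 tested genes. In the list 10 were below 0 and 4 above, and the median difference was -0.40. At an adjusted p-value under 0.05 alone, without the limit on size, NES, the neural progenitor filament nestin, differed by -0.71 ± 0.076 (SE) with 13.1, 14.6 and 12.7 TPM in Diff cells against 21.7, 23.3 and 22.6 TPM in GSCs. FABP7, a fatty acid binding protein of radial glia, differed by -0.61 ± 0.16 (SE), and CD44, a hyaluronan receptor, by -0.53 ± 0.068 (SE). SOX2, the neural stem cell transcription factor, stood at 0.809, 0.833 and 0.994 TPM in GSCs and 0.185, 0.163 and 0.11 TPM in Diff cells, and PROM1 at 0.545, 0.596 and 0.379 TPM and 0.0156, 0.0366 and 0.0185 TPM. Both lay under the filter, so they were not tested, although no library of one group reached the other. ALDH1A1, an aldehyde dehydrogenase, was listed at 0 in every Diff library and at 1.12, 1.2 and 0.879 TPM in GSCs. HES1, a Notch target that holds back neuronal differentiation, was the marker that rose, from 1.13, 1.21 and 0.485 to 3.55, 4.31 and 3.75 TPM (1.35 ± 0.21 (SE)). POU3F2, a neural transcription factor, differed by 0.80 and OLIG2 by -0.61, both short of a call.

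Neuronal markers moved in both directions. MAP2, a microtubule protein of dendrites, rose from 7.89, 7.65 and 9.13 to 22.5, 20.6 and 22.1 TPM and left the U87 level, with a difference of 1.30 ± 0.11 (SE) (limma, adjusted p = 4.6e-05). GAP43, a protein of growing axons, rose from 0.0764, 0.0688 and 0.263 to 3.91, 3.38 and 3.99 TPM, still under the 8.25, 8.19 and 11.7 TPM of U87, and SNAP25, a synaptic fusion protein, rose by 1.10. ENO2, the neuronal enolase, which is also in the glycolysis list, fell from 348, 310.4 and 214 to 104, 115 and 117 TPM, and MAPT, which encodes tau, fell from 5.59, 5.51 and 4.32 to 1.99, 1.31 and 1.29 TPM. TUBB3 differed by 0.14 (adjusted p = 0.51). RBFOX3, a marker of mature neurons, DCX, of migrating immature neurons, and STMN2, of growing neurites, were near 0. RBFOX3 was at most 0.127 TPM in Diff cells, DCX at most 0.0228 TPM, and STMN2 was listed at 0 in every library. In the whole list of 18 markers, 9 were tested, 3 (33.3%) rose and 2 (22.2%) fell, compared with 2.73% and 5.73% of all tested genes. The summed level ran from 166 to 177 TPM in Diff cells, from 267 to 404 TPM in GSCs and from 348 to 385 TPM in U87.

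Among glial and other lineage markers the calls were 1 of 6 tested astrocyte, 1 of 3 oligodendrocyte, 1 of 3 endothelial and 1 of 2 blood cell genes, all lower, beside 8.46% of all tested genes. The astrocyte filament GFAP stood at 1.07, 0.852 and 0.81 TPM in Diff cells against 0.66, 0.862 and 0.904 TPM in GSCs, and AQP4 was at most 0.0195 TPM. Of 6 tested astrocyte genes, only the gap junction gene GJA1 was called; it fell from 490.1, 442 and 568 to 163, 166 and 160.4 TPM. VIM, an intermediate filament, differed by -0.97, just short of a call, and was called without Diff replicate 2 (-1.01) or GSC replicate 2 (-1.05). Among oligodendrocyte markers PDGFRA, a receptor of oligodendrocyte progenitors, fell from 3.41, 3.07 and 4.62 to 0.109, 0.0572 and 0 TPM. Markers of other cell types were low, with PTPRC at most 0.11 TPM and CDH5 at most 0.465 TPM in the 6 libraries. VWF, an endothelial marker, fell from 11, 12 and 11.2 to 1.88, 1.64 and 1.71 TPM and was the 1 call among 3 tested endothelial markers. Of 2 tested blood cell markers 1 fell, NKG7, at -1.15, which was -0.90 and not called without GSC replicate 2.

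Genes of sterol synthesis and uptake gave the highest share of calls among the lists with over 10 tested members. Of 27 tested members, 16 (59.3%) fell and 1 (3.7%) rose, compared with 5.73% and 2.73% of all tested genes. A difference below 0 was seen for 25, and the median was -1.31, against -0.06 for all tested genes. HMGCS1, an early enzyme of cholesterol synthesis, fell from 100.1, 96.3 and 111 to 14.3, 12 and 14.1 TPM, below the 30.4, 33.5 and 25.5 TPM of U87. Its difference was -2.84 ± 0.11 (SE) (limma, adjusted p = 1e-06). MSMO1, a sterol demethylation enzyme, fell from 320.01, 277 and 369 to 66.9, 58 and 63.9 TPM. INSIG1, which holds SREBP in the endoplasmic reticulum, fell from 957, 942 and 931 to 254, 252 and 276 TPM and was back at the U87 level of 205, 242 and 185 TPM. In each of these the GSC libraries lay above both other groups without overlap. The median member stood 1.10 above U87 in GSCs and -0.06 in Diff cells. Of the 17 called members, 10 were back at the U87 level and HMGCS1 had crossed it. ABCA1, which exports cholesterol from cells, was the member that rose, from 121, 124 and 129.9 to 309, 311 and 316 TPM (1.31 ± 0.054 (SE)).

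The promoters of the sterol genes are shown because these members fell together. They are the 200 bases before the gene start from RefSeq on GRCh38.p14, written 5′ to 3′ along the strand of the gene, with the CCAAT box, the site of the factor NF-Y that acts beside SREBP, in capitals on either strand (CCAAT or ATTGG).
HMGCS1 (chr5:43313413-43313612, minus strand): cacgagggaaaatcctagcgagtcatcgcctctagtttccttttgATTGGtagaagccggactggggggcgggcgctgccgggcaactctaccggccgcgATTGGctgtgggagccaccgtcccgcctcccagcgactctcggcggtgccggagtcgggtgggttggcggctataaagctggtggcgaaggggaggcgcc
MSMO1 (chr4:165327469-165327668, plus strand): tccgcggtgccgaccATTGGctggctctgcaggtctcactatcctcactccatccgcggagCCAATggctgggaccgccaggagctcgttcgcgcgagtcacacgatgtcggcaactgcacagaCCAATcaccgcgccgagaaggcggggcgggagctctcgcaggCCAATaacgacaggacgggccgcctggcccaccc
INSIG1 (chr7:155297678-155297877, plus strand): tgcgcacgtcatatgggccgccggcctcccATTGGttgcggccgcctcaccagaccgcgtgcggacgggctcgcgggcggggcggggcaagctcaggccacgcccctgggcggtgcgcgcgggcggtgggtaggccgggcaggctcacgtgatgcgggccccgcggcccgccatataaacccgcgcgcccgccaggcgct
IDI1 (chr10:1056705-1056904, minus strand): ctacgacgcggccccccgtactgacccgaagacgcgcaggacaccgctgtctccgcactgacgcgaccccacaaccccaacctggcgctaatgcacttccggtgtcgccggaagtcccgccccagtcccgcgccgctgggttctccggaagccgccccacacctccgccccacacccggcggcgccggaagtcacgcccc
HMGCS1 has 2 such boxes in this window, at 155 and 100 bases before the start, MSMO1 has 4, INSIG1 has 1 and IDI1 has 0. RefSeq promoters, here 250 bases before to 50 after the start, were at hand for 11 of the 16 members that fell. Of these, 10 (90.9%) held a CCAAT box, compared with 36.6% of 11116 promoters of tested genes and 6 of 8 promoters of members that were not called. This motif was searched for after the sterol element TCACNCCAC, looked for first, had matched 0 of the 11 promoters and 1.1% of all. A match is a description of the sequence and not evidence of binding.

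Fewer of the other lipid genes were called. SCD, the stearoyl-CoA desaturase, which makes monounsaturated fatty acids, fell from 4472, 4236 and 4688 TPM to 1956, 2120.03 and 2479 TPM. Its difference of -1.04 ± 0.12 (SE) became -0.96 without Diff replicate 1 and -0.98 and -0.97 under 2 other scalings, which ended the call. ACSS2, which makes acetyl-CoA from acetate, fell from 89.9, 91.3 and 92.8 to 35.5, 32.8 and 33.5 TPM and was back at the U87 level of 34.8, 32.3 and 30.9 TPM. GPAM, which starts triglyceride synthesis, rose by 1.42. ACACA and ACLY, enzymes at the entry of fatty acid synthesis, differed by 0.16 and -0.25. In all, 1 (5.88%) of 17 tested fatty acid genes rose and 2 (11.8%) fell, compared with 2.73% and 5.73% of all tested genes. FABP3, a fatty acid carrier, and HILPDA, a lipid droplet protein, changed by -1.87 and -2.56. Of 17 tested lipid droplet genes 3 (17.6%) fell and 0 rose, beside 5.73% and 2.73% of all tested genes.

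Several targets of BMP signaling rose and 2 of its secreted antagonists fell. ID1, ID2 and ID3 encode inhibitors of basic helix-loop-helix transcription factors. ID1 stood at 1.06, 1.8 and 1.22 TPM in GSCs, 19.5, 26.6 and 24.6 TPM in Diff cells and 161, 124 and 166 TPM in U87, and ID3 at 3.4, 2.97 and 2.23 TPM, 46.8, 55.7 and 54.6 TPM and 68.8, 69.2 and 87.9 TPM. All Diff libraries lay between the other 2 groups for both genes. The differences from GSCs were 3.38 ± 0.16 (SE) and 3.80 ± 0.14 (SE), with adjusted p-values (limma) of 2.5e-06 and 7.2e-07. ID2 rose from 14, 13.9 and 18.4 to 48, 46.8 and 47.7 TPM, and the inhibitory SMAD genes SMAD6 and SMAD7 rose by 1.12 and 1.47. GREM1, which encodes the BMP antagonist gremlin, fell from 260.1, 243 and 303 to 69.2, 60.5 and 54.7 TPM, and NOG fell as described. Of 16 tested genes of the list, 5 (31.2%) rose and 2 (12.5%) fell, compared with 2.73% and 5.73% of all tested genes. Of these 7, 3 were back at the U87 level, 3 partly back and 1 not placed. The core of the BMP element, GGCGCC, was in 0 of the 5 promoters of the members that rose, in 3 of 8 of members not called and in 29.3% of all promoters.

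TGF-beta targets were split. TGFBI, a secreted matrix protein named for its induction by TGF-beta, rose from 66.7, 63 and 68.3 to 568, 539 and 517 TPM and was back at the U87 level, with 806, 763 and 817 TPM in U87 and a difference of 3.02 ± 0.055 (SE) from GSCs. SKIL and PMEPA1, feedback inhibitors of the pathway, rose by 1.54 and 1.69, whereas CCN2 differed by 0.14 and was not called. LOX, a collagen cross-linking enzyme that is also in the hypoxia list, fell, at -1.65. Of 18 tested targets 3 (16.7%) rose and 1 (5.56%) fell, compared with 2.73% and 5.73% of all tested genes. Among 23 serum response factor and actin genes, 18 were above 0 with a median of 0.32. Of these 23, 3 (13%) were called higher and 1 (4.35%) lower. Those that rose were CNN1 and TPM1, which encode actin-binding proteins of contractile filaments, at 1.20 and 1.43, and the myosin light chain gene MYL9 at 1.19. FHL1, a LIM domain protein of muscle, fell from 3.39, 3.44 and 4.43 to 1.37, 0.932 and 1.15 TPM, further from the 31.2, 29.4 and 30.9 TPM of U87 (-1.14 ± 0.12 (SE)). SRF itself differed by 0.38. The CArG letters CCATATTAG or CCTTATATG were in 0 of the 2 promoters at hand for members that rose, in 1 of 18 of members not called and in 0.171% of all.

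Retinoid genes also changed at several steps of the pathway. Besides DHRS3, STRA6, the cell surface receptor that takes up retinol, went from at most 0.0868 TPM in GSCs to 3.62, 3.78 and 3.83 TPM in Diff cells. CYP26B1, which degrades retinoic acid, rose from 0.12, 0.27 and 0.138 to 1.92, 1.95 and 2.11 TPM and was back at the U87 level. TGM2, a transglutaminase induced by retinoic acid, rose from 33.2, 38.6 and 34.4 to 113, 112 and 117 TPM, and RARRES2, a retinoid-responsive chemokine gene, stood at 3.16, 2.72 and 3.03 TPM in Diff cells and was listed at 0 in the other 6 libraries. CRABP2, which carries retinoic acid to its receptor, fell from 38.9, 32 and 26.9 to 4.62, 5.3 and 3.95 TPM, further from the 138, 117 and 157 TPM of U87. Of 17 tested genes, 5 (29.4%) rose, 1 (5.88%) fell and 11 were not called, compared with 2.73% higher and 5.73% lower of all tested genes.

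Some feedback regulators of the ERK cascade fell. Of 19 tested, 7 (36.8%) fell, compared with 5.73% of all tested genes, 0 rose and 12 were not called. By limma 13 had an adjusted p under 0.05 (13 an unadjusted p under 0.05), 14 were below 0, and the median was -0.74. SPRY2, a Sprouty inhibitor of receptor tyrosine kinase signaling, went from 209, 223 and 210.4 to 38.4, 38.2 and 35 TPM with 87.1, 71.8 and 80.8 TPM in U87. Diff cells were lowest of the 3 groups, and the difference from GSCs was -2.49 ± 0.075 (SE) (limma, adjusted p = 3.7e-07). SPRY1 fell from 5.42, 6.1 and 6.01 to 0.41, 0.551 and 0.73 TPM and DUSP4, an ERK phosphatase, from 62.7, 64.9 and 74.2 to 31.3, 30.4 and 29.4 TPM. DUSP6, the cytoplasmic ERK phosphatase, fell, at -2.22, and 40.5% of its exon length overlaps another gene, so its reads are less certain. SPRY4 differed by -0.49 and was not called. Of the called members 2 were back at the U87 level, 2 had left it, 1 had crossed it and 2 were not placed.

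Several immediate early genes also fell. FOS, part of the AP-1 factor, went from 31.8, 40.5 and 20.9 TPM in GSCs to 3.65, 5.32 and 5.93 TPM in Diff cells, with 7.53, 7.65 and 5.01 TPM in U87. ATF3 went from 30.7, 33 and 25.9 to 6.44, 7.03 and 6.48 TPM, the orphan receptor NR4A2 from 10.7, 12.6 and 11.8 to 2.03, 1.93 and 2.01 TPM, and ZFP36, which destabilizes cytokine mRNAs, from 249, 258 and 167 to 53.3, 56.3 and 57.8 TPM. In all 4 the GSC libraries stood above every library of the other groups, and differences ran from -1.96 to -2.40. Of 21 tested genes 7 (33.3%) fell and 1 (4.76%) rose, compared with 5.73% and 2.73% of all tested genes. Of these 8, 6 were back at the U87 level. GSC replicate 3 was the lowest GSC library for 16 of the 21 (76.2%), compared with 31% of all tested genes, and without it 8 were called lower. KLF2, an endothelial and quiescence factor, was the gene that rose, by 1.39. FOSL1, another AP-1 member, stood at 1100.3, 1119.9 and 919.8 TPM in GSCs and differed by 0.14. The AP-1 letters TGANTCA were in 0 of 5 promoters at hand for members that fell, in 1 of 10 of members not called and in 5.36% of all.

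No tested ErbB receptor gene was called, and some ligands fell. EGFR stood at 99.1, 97 and 100.04 TPM in Diff cells against 135, 134 and 132 TPM in GSCs, a difference of -0.44 ± 0.043 (SE). ERBB2 differed by -0.68 and FGFR1 by -0.23, neither called. EREG, which encodes the EGFR ligand epiregulin, fell from 84.2, 75.1 and 114 to 15.7, 14.9 and 13.8 TPM and left the U87 level of 93.1, 76.6 and 92.8 TPM, with a difference of -2.52 ± 0.15 (SE). LRIG1, which promotes degradation of EGFR and marks quiescent stem cells, fell from 19.6, 19.5 and 15.2 to 3.84, 3.76 and 3.68 TPM. Of 11 tested ErbB genes 3 (27.3%) fell and 0 rose, compared with 5.73% and 2.73% of all tested genes. The third fall, the ligand gene EPGN at -1.12, was not called without GSC replicate 3 (-0.91).

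**Figure D4:**
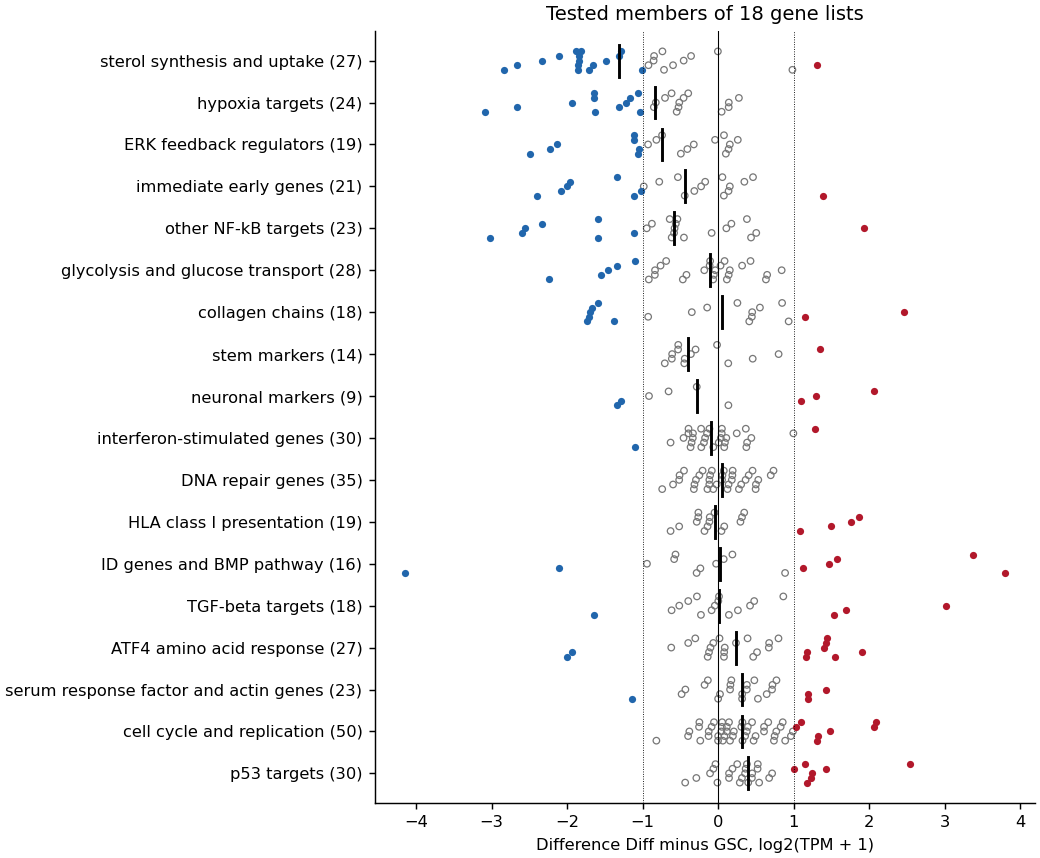
Each point is a tested member of 1 of 18 gene lists, with the number tested in brackets, placed by its difference Diff minus GSC on the log2(TPM + 1) scale. Red points were called higher, blue points called lower and open points not called; the thick bar is the median, which runs from -1.31 for sterol genes to 0.39 for p53 targets.

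Hypoxia targets that fell moved away from U87 in 10 of 11 cases. Of 24 tested members 11 (45.8%) fell and 0 rose, compared with 5.73% and 2.73% of all tested genes. The median of the list was -0.84. None of the 11 was back at the U87 level; 6 were further away, 4 had left it and 1 was not placed. The median member stood at -0.89 against U87 in GSCs and at -1.86 in Diff cells. NDRG1, a stress-induced differentiation gene, stood at 456, 470.2 and 398 TPM in U87, 221, 219 and 105 TPM in GSCs and 24.1, 27.2 and 27.4 TPM in Diff cells. GSC replicate 3 was the lowest GSC library, yet above every Diff library. CA9, the carbonic anhydrase of hypoxic tumors, stood at 430.2, 375 and 445, 128, 117 and 90.3 and 10.03, 13.6 and 13 TPM in the same order, and ADM, which encodes the vasodilator adrenomedullin, at 114, 104 and 102, 81.6, 80.4 and 55.6 and 23.4, 21.6 and 21.8 TPM. The differences from GSCs were -2.67 ± 0.25 (SE), -3.09 ± 0.15 (SE) and -1.64 ± 0.13 (SE). HIF1A and EPAS1, which encode the hypoxia-inducible factors, differed by 0.14 and 0.05 and were not called.

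GSC replicate 3 was the lowest GSC library for 15 of the 24 hypoxia genes (62.5%), compared with 31% of all tested genes. Without it, 11 hypoxia genes were called lower, with NDRG1 at -3.02 and the glucose transporter gene SLC2A1 at -1.75. SLC2A1 itself went from 84, 85.6 and 45.8 to 23.3, 24.2 and 26 TPM, with 231, 226 and 217 TPM in U87, and SLC2A3 from 323, 277 and 232 to 55.1, 57.1 and 59.5 TPM. ALDOC and PFKFB3, a glycolytic aldolase and the regulator of phosphofructokinase, changed by -1.55 and -1.10. Of 28 glycolysis genes 5 (17.9%) fell, compared with 5.73% of all tested genes, 0 rose, and the median was -0.11. Exons of CA9 and of DDIT4, which changed by -1.93, overlap other genes over 38.5% and 41.2% of their length. Such overlap also affects genes named elsewhere, such as CTSA (28.5%), CIITA (23.4%) and DEPP1 (23.3%). The oxygen and density of the cultures are not among the labels, and their part in this result was not tested.

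**Figure D5:**
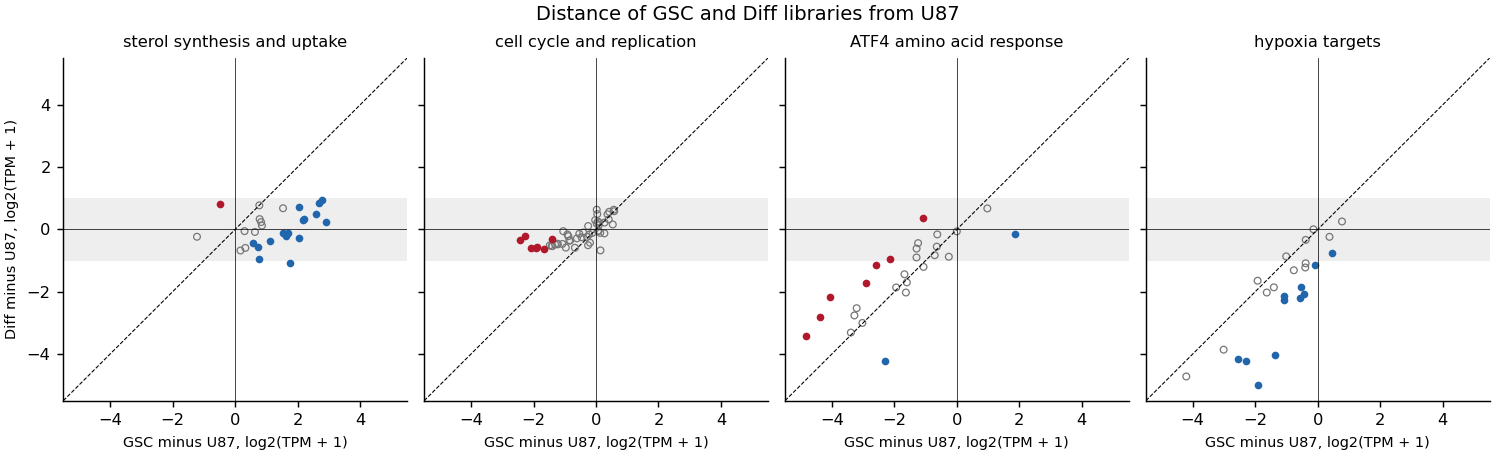
Each point is a tested member of the list named above the panel. The horizontal axis gives its difference GSC minus U87 and the vertical axis Diff minus U87, both as log2(TPM + 1); the dashed line marks no change between GSC and Diff, the grey band -1 to 1 from U87, and red and blue points were called higher and lower in Diff against GSC. Called sterol and cell cycle genes lie in or next to the band, ATF4 genes partly on the way to it, and called hypoxia genes below the dashed line. The median of all 24 hypoxia members is -1.86 on the vertical axis, and 4 of them lie above the dashed line.

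Some secreted genes of the IGF list also moved further from U87. IGFBP3, an insulin-like growth factor carrier, stood at 628, 647 and 543 TPM in U87, 60.1, 46 and 37.7 TPM in GSCs and 6.08, 6.61 and 6.64 TPM in Diff cells, and the hormone gene STC1 at 601, 649 and 628, 279, 247 and 281 and 35.6, 29.7 and 33.5 TPM. Their differences from GSCs were -2.69 ± 0.15 (SE) and -2.99 ± 0.078 (SE), and from U87 they were -6.35 and -4.21. IGFBP4 and IGFBP7 instead returned to the U87 level from opposite sides, IGFBP4 from 151, 157 and 132 down to 28, 31.1 and 34.3 TPM and IGFBP7 from 14.8, 13.5 and 13.5 up to 55.4, 48.8 and 43.5 TPM. Of 16 tested genes 2 (12.5%) rose and 4 (25%) fell, compared with 2.73% and 5.73% of all tested genes.

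Genes of the amino acid response driven by ATF4 rose in part. Of 27 tested members 7 (25.9%) rose and 2 (7.41%) fell, compared with 2.73% and 5.73% of all tested genes. Of these 9, 5 were partly back at the U87 level. Diff replicate 3 was the highest Diff library for 21 of the 27 (77.8%, compared with 32.6% of all tested genes), Diff replicate 1 the lowest for 66.7% (26.4% of all) and GSC replicate 3 the lowest GSC library for 63% (31% of all). Leaving out any 1 Diff or GSC library again gave 7 rises. PSAT1, an enzyme of serine synthesis, stood at 378, 395 and 269.6 TPM in U87, 17.8, 18.1 and 23.4 TPM in GSCs and 70.7, 71.1 and 87.2 TPM in Diff cells. SLC7A11, the cystine importer, stood at 49.99, 42.3 and 52.1, 1.66, 0.99 and 1.52 and 5.78, 4.999 and 7.29 TPM, and SLC7A5, a leucine transporter, at 458, 436 and 353, 14.8, 15.1 and 11 and 31.9, 37.2 and 44.8 TPM. The Diff libraries lay between the other groups in all 3 genes, with differences from GSCs of 1.90 ± 0.16 (SE), 1.55 ± 0.16 (SE) and 1.41 ± 0.16 (SE). WARS1, a tRNA synthetase, and SESN2, an inhibitor of mTORC1, rose by 1.44 and 1.18. ATF4 itself differed by -0.14. The 2 members that fell were ATF3, also an immediate early gene, and DDIT4, also a hypoxia target.

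Several cell cycle genes rose to within 1 of the U87 level. Of 50 tested cell cycle and replication genes, 7 (14%) rose and 0 fell (limma), compared with 2.73% and 5.73% of all tested genes. In the list 40 were above 0, the median was 0.32, and all 7 that rose were back at the U87 level. CENPE, a kinetochore motor, stood at 3.67, 4.54 and 5.1 TPM in GSCs, 21.8, 20.5 and 22.6 TPM in Diff cells and 27.5, 20.4 and 28.4 TPM in U87. CENPF went from 11.7, 12.5 and 14.3 to 58.9, 57.8 and 56.9 TPM, PLK1, the mitotic kinase, from 26.3, 29.9 and 29.3 to 76.8, 84 and 83.9 TPM, CCNB1, which encodes cyclin B, from 67, 67.4 and 83.9 to 183, 179 and 187 TPM, and CDC20, an activator of the anaphase-promoting complex, from 67, 72.5 and 60.5 to 153, 175 and 173 TPM. U87 stood at 127, 115 and 132 TPM for PLK1, 276, 269 and 284 TPM for CCNB1 and 270.5, 223 and 256 TPM for CDC20, so that Diff minus U87 was -0.60, -0.59 and -0.57, outside a band of 0.5. No GSC library reached a Diff library in these genes, and differences ran from 1.31 to 2.09. MKI67, the proliferation marker, differed by 0.99, under the limit of 1, and passed it under all 3 other scalings (1.02 to 1.06) and without Diff replicate 2, GSC replicate 2 or GSC replicate 3 (1.01 to 1.02). TOP2A differed by 0.77 (adjusted p = 0.0014).

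Several targets of p53 rose, and no DNA repair gene passed the limit on size. Of 30 tested p53 targets 7 (23.3%) rose and 0 fell, compared with 2.73% and 5.73% of all tested genes. In the list 24 were above 0, and the median was 0.39. PLK2, a stress-induced kinase, rose from 3.62, 4.45 and 5.37 to 32.5, 29 and 30.6 TPM (2.54 ± 0.12 (SE)), BTG2, an antiproliferative factor, from 4.37, 4.22 and 4.71 to 11.6, 11.3 and 12.6 TPM, and FDXR, a mitochondrial reductase, from 8.31, 10.1 and 6.2 to 19.4, 23.1 and 18.5 TPM. GDF15, a stress cytokine also placed in the ATF4 list, rose from 4.66, 7.39 and 6.54 to 16.8, 20.2 and 17.7 TPM. MDM2 differed by 0.52 and CDKN1A, the cell cycle inhibitor p21, by 0.15, and neither was called. BTG2 and FDXR had left the U87 level. Of 35 tested DNA repair genes 17 had an adjusted p under 0.05 (limma; 20 an unadjusted p under 0.05) but 0 exceeded the limit of 1 on size, and the median was 0.05. GSC replicate 3 was the highest GSC library for 28 of the 35 (80%), compared with 47.4% of all tested genes. ATM, the kinase of double-strand break signaling, stood at 12.2, 11.1 and 11.2 TPM in Diff cells against 16.6, 15 and 19.2 TPM in GSCs, a difference of -0.51 ± 0.10 (SE), and PRKDC differed by 0.06.

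NF-kB subunits and cytokines moved in both directions. Among 19 subunits and feedback inhibitors 2 rose and 2 fell. RELA differed by -0.08 (adjusted p = 0.52) at 77.5, 82.6 and 78.7 TPM in Diff cells against 86.7, 94.8 and 72.9 TPM in GSCs. TRAF1, an adaptor of TNF receptors, fell, at -1.18, and IKBKE, an IKK-related kinase, rose by 1.28. Among 17 tested chemokines and cytokines 4 (23.5%) rose and 2 (11.8%) fell, beside the same shares of all tested genes. CCL26, which encodes eotaxin-3, rose from 0.413, 1.67 and 0.237 to 19.7, 21 and 17.5 TPM, LIF, a cytokine of the interleukin-6 family, from 24.3, 24.9 and 20.4 to 84.2, 81.5 and 85.2 TPM, and CCL2 from 0.675, 0.203 and 0.86 to 6.06, 4.02 and 3.92 TPM. CXCL1, CXCL2 and CXCL3 differed by 0.05, -0.32 and -0.30, none called.

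Of 23 other NF-kB targets, 7 (30.4%) fell and 1 (4.35%) rose, compared with 5.73% and 2.73% of all tested genes. EDN1, which encodes the vasoconstrictor endothelin, stood at 193, 177 and 219 TPM in GSCs, 40.1, 41 and 33.1 TPM in Diff cells and 0.519, 0.496 and 0.622 TPM in U87, and was partly back. MMP1, the interstitial collagenase, fell from 30.8, 26.5 and 39.4 to 3.52, 2.69 and 2.92 TPM, against 2.65, 1.9 and 1.02 TPM in U87. BCL2A1, an inhibitor of apoptosis, and ICAM1, an adhesion molecule, changed by -2.55 and -1.59, and F3, which encodes tissue factor, by -2.59. PTGES, which makes prostaglandin E2, was the member that rose, from 139.5, 139 and 115 to 521, 513 and 477 TPM with 35.3, 36.7 and 34.4 TPM in U87. The kappa B letters GGGNNTTCC were in 0 of the 5 promoters at hand for members that fell, in 3 of 12 of members not called and in 8.11% of all, and so few promoters allow no reading. Of 30 tested interferon-stimulated genes 1 rose and 1 fell, close to the 8.46% background.

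Matrix genes changed in both directions. COL1A1, the main chain of type I collagen, rose from 27.6, 31.6 and 23.9 to 150.5, 159.6 and 159.7 TPM, with 500.4, 452 and 539.9 TPM in U87, a difference of 2.47 ± 0.10 (SE) (limma, adjusted p = 1.4e-06). COL6A1 and COL6A2, chains of type VI collagen, fell from 1968, 2010.2 and 1595 TPM to 599, 578 and 561 TPM and from 2210.4, 2360.4 and 1674 TPM to 677, 643 and 595 TPM. Of 18 tested collagen chains 2 (11.1%) rose and 6 (33.3%) fell, compared with 2.73% and 5.73% of all tested genes. LUM, a proteoglycan of collagen fibrils, stood at 26.9, 23.9 and 22 TPM in Diff cells against 0.924, 0.539 and 1.06 TPM in GSCs and 1.53, 0.756 and 1.8 TPM in U87, and VCAN, which encodes versican, rose back to the U87 level (1.49). LAMA5, a basement membrane laminin, fell from 12.5, 14.6 and 10.6 to 1.23, 1.03 and 1.19 TPM and FBLN5, an elastic fiber protein, from 142, 142 and 141 to 47.4, 49.2 and 45.2 TPM. TIMP2, an inhibitor of matrix metalloproteinases, rose by 1.46. MMP2 differed by 0.99, under the limit of 1, and passed it under all 3 other scalings (1.05 to 1.21) and without Diff replicate 2, Diff replicate 3 or GSC replicate 3 (1.00 to 1.01).

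Antigen presentation genes of class II rose, and HLA-B and HLA-C of class I were not called. The list was written for class I presentation and related genes. Of its 19 tested members 4 (21.1%) rose, all of them class II genes, compared with 2.73% of all tested genes. CIITA, the transactivator of class II genes, rose from 3.39, 3.91 and 3.22 to 8.56, 8.49 and 8.5 TPM. HLA-DRA stood at 25.7, 21 and 24.5 TPM in GSCs, 92.2, 87.8 and 86.8 TPM in Diff cells and 297, 270.04 and 308 TPM in U87, and CD74, the invariant chain, at 36.1, 37.3 and 31, 98.1, 105 and 97.2 and 299, 278 and 309 TPM. Diff libraries lay between the other groups without overlap, and the differences from GSCs were 1.08 ± 0.10 (SE), 1.87 ± 0.081 (SE) and 1.50 ± 0.076 (SE). HLA-DRB1 rose by 1.75. All 4 were partly back. HLA-B and HLA-C, which encode class I heavy chains, differed by -0.28 and -0.51. PTPRC, the marker of blood cells that carry class II, was at most 0.0625 TPM in Diff cells.

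Among developmental pathways, NOTCH3, a Notch receptor, fell from 7.21, 7.23 and 5.91 to 0.21, 0.247 and 0.308 TPM, further from the 70.9, 59.3 and 71.4 TPM of U87, while LFNG, which modifies Notch receptors, rose from 2.66, 2.47 and 2.52 to 10.3, 9.73 and 10.3 TPM. RBPJ, the transcription factor of the pathway, fell, at -1.38, and 3 of 16 tested Notch genes rose and 3 fell. DKK1, a WNT antagonist, rose from 1.96, 2.12 and 1.87 to 10.1, 7.87 and 7.88 TPM, and FZD8, a WNT receptor, fell from 70.6, 71.5 and 72.9 to 15.3, 13.2 and 13.2 TPM, while 3 of 22 tested WNT genes rose and 1 fell. TXNIP, an inhibitor of thioredoxin, and CITED2, a transcriptional coregulator, fell back to the U87 level among FOXO targets, at -1.23 and -1.99. Of 19 tested members 4 fell and 0 rose. Besides these 2, 1 of the falls went further away from U87 and 1 was not placed. The glucocorticoid target DUSP1 fell from 98.7, 95.4 and 99.2 to 28.7, 37.9 and 30.3 TPM, 1 of 2 falls among 14 tested members. Of 13 tested genes of the FGF and PDGF system 2 fell and 0 rose. The shares called in either direction were 37.5% for Notch, 18.2% for WNT and 21.1% for FOXO genes. They were 14.3% for glucocorticoid targets and 15.4% for the FGF and PDGF system, compared with 8.46% of all tested genes.

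Lysosome genes were mostly above 0. Of 27 tested members 4 (14.8%) rose and 0 fell, compared with 2.73% and 5.73% of all tested genes. In the list 20 were above 0, with a median of 0.31. MITF, a transcription factor of lysosome and pigment genes, rose from 0.528, 0.529 and 0.471 to 6.18, 6.3 and 5.56 TPM and was back at the U87 level of 4.01, 3.69 and 4.64 TPM. CTSA and MCOLN1, a lysosomal carboxypeptidase and calcium channel, rose by 1.14 and 1.12. GCLM, which limits glutathione synthesis, fell from 71.5, 63.1 and 87.9 to 12, 10.4 and 11.2 TPM. It is among 28 NRF2 and selenoprotein genes, of which 1 (3.57%) rose and 2 (7.14%) fell. No mitochondrially encoded transcript of 13 was called. By limma 5 had an adjusted p under 0.05 (5 an unadjusted p under 0.05), short of the limit of 1 on size. Of 22 endoplasmic reticulum chaperone genes 1 (4.55%) was called, the transcription factor CREB3L1 at 1.20. Smaller or mixed counts came from YAP and TEAD targets (1 higher and 3 lower of 20), matrix proteases and inhibitors (1 and 3 of 24), EMT and adhesion genes (1 and 2 of 26), guidance genes (2 and 2 of 27), metallothionein and iron genes (2 and 1 of 15) and complement and coagulation genes (0 and 2 of 19).

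Programs differed in where they ended relative to U87. Of the called members, those back at the U87 level numbered 10 of 17 in the sterol list, 7 of 7 in the cell cycle list and 6 of 8 in the immediate early list, compared with 30.5% of all called genes. Partly back were 4 of 4 in the HLA list and 5 of 9 in the ATF4 list, compared with 11.4%. Further away or off the U87 level were 10 of 11 in the hypoxia list and 0 of 7 in the cell cycle list, compared with 3.82% further away and 14.3% that had left among all called genes. Members of 1 list can share regulation and are not independent of each other.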

How the data were processed

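RNA of 3 libraries each of U87, GSC and Diff cells was sequenced in read pairs. The authors deposited log2(TPM + 1) for 60606 genes, and each column summed to 1000000 TPM after conversion. The submitters' processing notes name FastQC 0.11.9, Trimmomatic 0.39, HISAT2 2.2.1, featureCounts 2.0.5, R 4.2.0 and GRCh38, and the annotation and strand setting are not given in the sources used here. The labels describe removal of ribosomal RNA and a directional kit, whereas the methods describe selection of mRNA by oligo(dT). Depth is unknown.

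Genes with a mean TPM over 1 in the 6 Diff and GSC libraries entered limma (version 3.58.1 under R 4.3.3) on the deposited log2 scale with a pseudocount of 1, a variance trend, 1 fit over all 9 libraries and Benjamini-Hochberg adjustment within each contrast. The methods state no test for these data. The scripts were tested on simulated data. Named genes are the 10 largest protein-coding changes in each direction without overlap, the 5 largest called changes in each direction and the first 3 members of each of 47 gene lists written from general knowledge, all stem, neuronal and astrocyte markers, and the 5 largest protein-coding changes of each placement class. Other genes in the text were chosen after their values were seen. The comparison, members and lists were chosen with earlier results of these data known. Coordinates are from GENCODE 29 (GRCh38), matched by symbol for 53594 genes. Promoters are from RefSeq (GRCh38.p14), matched for 11116 tested genes. Columns of no sample numbered 0. Other scalings, filters, pseudocounts, a replicate block and leaving out each library were tried. Some genes are not reported here.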

Additional observations from a re-analysis of the deposited data

How the results depend on the processing

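The call counts depended on the filter and the threshold. With a mean TPM over 5, 1038 genes were called in Diff against GSC (313 higher, 725 lower), 314 were back at the U87 level and 135 had left it, while 2181 were called in GSCs and 1487 in Diff cells against U87; fewer genes were tested there. By adjusted p alone, without the limit of 1, 8068 genes were called (3443 higher, 4625 lower), 4155 were back and 1371 had left, and 10882 and 8647 were called against U87. The list counts then became 20 lower for hypoxia, 12 for immediate early and 13 for ERK feedback genes, and 26 higher for cell cycle, 17 for p53 and 12 for ATF4 genes. With the U87 level set to within 0.5, 156 genes were back.

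Leaving out each library in turn gave 1851 to 1973 called genes, 594 to 672 higher and 1220 to 1379 lower. A replicate block gave 1908 calls (617 higher, 1291 lower); same-numbered Diff and GSC libraries correlated at -0.029, 0.052 and 0.0029 in their deviations, so the numbers were not taken to pair them. Of 173 tested genes in the text, 138 were called, and 135 of these were called under every alternative in which they were tested. The exceptions among called genes were SCD, EPGN and NKG7, with their values given above. Genes at low levels, such as CNN1, CYP26B1 and CCL2, fell below the higher TPM filter, so their calls were not tested there. Among the values at hand, 0 reversed direction. TPM values keep no depth, so what depth limits cannot be stated.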
